A study of Mus musculus with 11 samples.

Results

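The respiratory chain genes described here were taken from the count table by symbol: names beginning Nduf, Cox4 to Cox8, Uqcr or Atp5, the genes Sdha, Sdhb, Sdhc and Sdhd, and the protein genes of the mitochondrial genome, written mt-. Of 47517 rows, 109 matched, 4 pseudogene rows ending in -ps were left out, and 105 genes remained. Of these, 92 are nuclear (38 named as complex I subunits, 7 complex I assembly factors, 4 complex II, 8 complex III, 18 complex IV and 17 complex V genes) and 13 are mitochondrial. RNA was sequenced from forelimb buds of C57BL/6 mouse embryos at E10.5. Controls (5 libraries) were Gmnn +/f; Prx-Cre and mutants (6 libraries) were Gmnn f/f; Prx-Cre, so that the controls also carried the Cre transgene and 1 floxed allele, and no library without Cre was compared. Gmnn encodes Geminin, an inhibitor of the replication licensing factor Cdt1. The Prx-Cre transgene drives recombination in limb bud mesenchyme, while ectoderm, blood, vessels and incoming muscle precursors in a bud come from other lineages. The embryos came from 4 litters, called A (controls 1 and 2, mutants 1 and 2), B (control 3, mutant 6), C (control 4, mutant 5) and D (control 5, mutants 3 and 4). In whole buds, a lower level can mean fewer cells of a type or less RNA per cell, and these cannot be told apart.

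The respiratory chain makes most of the ATP of cells that use oxygen. Complex I takes electrons from NADH and complex II from succinate, complex III passes them to cytochrome c, and complex IV, cytochrome c oxidase, gives them to oxygen. Complexes I, III and IV pump protons across the inner mitochondrial membrane, and complex V, the ATP synthase, uses the proton flow to make ATP. Complex II is built from nuclear genes alone. The other complexes combine nuclear subunits with subunits made inside the mitochondrion, so that both genomes contribute to 1 machine. Nuclear respiratory genes are known to share promoter motifs for the factors NRF1, GABP (an ETS factor) and YY1.

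The libraries held 14721181 to 19733288 counted reads each. Gmnn, the targeted gene, lay at 139 to 239 CPM (reads of a gene relative to library totals scaled by TMM factors) in controls and 99.5 to 138 CPM in mutants. Its log2 fold change, mutant over control, was -0.67 (SE 0.10, Benjamini-Hochberg adjusted p 0.0291, edgeR quasi-likelihood test on genotype and litter), and adjusted p was 0.0501 without the block. Over all genes, 345 of 15821 (2.18%) passed an adjusted p of 0.05. Some libraries stood apart: mutant 5 had 8 Xist and 4 Y-linked reads and so matched neither sex, mutant 2 had 5.44% of its reads in haemoglobin genes against 1.34% to 3.30% in the other 10 libraries, and control 5 was nearest to the mutants in the measures given further on. All 8 limb mesenchyme markers had reads in these buds, and their summed level was 704 to 933 CPM in controls and 715 to 817 CPM in mutants. One of them, Lhx9, named after its values were seen, passed the threshold (log2 fold change -0.50, edgeR adjusted p 0.0406). Its mutants all lay below its controls (background 1.3%). Most of the list went the other way: 5 of the 8 had a positive log2 fold change, and the median was 0.12. At an unadjusted p under 0.05, 4 were higher and 2 lower in mutants (9.84% and 11.5% of all genes tested were). Nothing in the labels says that the embryos of a group were pooled, and p-values measure the spread between these libraries.

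Sequences of mitochondrial genes with few counted reads are shown first, beside their copies in the nuclear genome. mt-Nd3 (a complex I subunit, chrM:9459-9806, plus strand, mm10) has a near-identical copy on chromosome 1, the annotated pseudogene Gm28438 (chr1:24612775-24613119). The first 60 bases of each are shown from the GENCODE transcripts, with the only base that differs over 345 aligned bases in capitals.
mt-Nd3: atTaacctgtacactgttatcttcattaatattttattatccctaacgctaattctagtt
Gm28438: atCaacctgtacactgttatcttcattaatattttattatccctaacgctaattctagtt
For mt-Co2 (a catalytic core subunit of complex IV, chrM:7013-7696, plus strand), all 681 aligned bases are the same in its copy Gm28661 (chr1:24614885-24615565), so that 1 sequence stands for both.
mt-Co2 and Gm28661: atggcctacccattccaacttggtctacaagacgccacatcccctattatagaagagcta

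For the nuclear genes, promoter windows from RefSeq (build GRCm38.p6) were searched on both strands for GCGCNNGCGC (NRF1), CCGGAAG (ETS factors, GABP among them) and AAGATGGC (YY1). The motifs do not contain one another. Windows ran from 250 bases before to 50 bases after the start, and 76 of the 92 nuclear genes were matched to one by symbol. GCGCNNGCGC was in 27.6% of these genes (21) against 9.61% of all protein-coding genes with a window, CCGGAAG in 22.4% (17) against 12.95%, and AAGATGGC in 14.5% (11) against 3.57%. At least 1 of the motifs was in 56.6% of the respiratory genes and 22.99% of protein-coding genes. The windows shown run from 140 bases before the start to 20 bases into the transcript, 5′ to 3′ on the gene's strand, with motif matches in capitals. Atp5k (NRF1 and ETS) and Atp5j (YY1, at 1 of its 2 annotated starts) had the smallest p among the genes with a match inside such a stretch. Ndufaf2 and Sdha are the nuclear genes whose groups did not overlap, Ndufaf2 with higher and Sdha with lower mutants. That is 1 of 88 tested nuclear genes in each direction, near the shares over all genes tested (1.29% and 1.3%).
Atp5k (chr5:108434380-108434539, minus): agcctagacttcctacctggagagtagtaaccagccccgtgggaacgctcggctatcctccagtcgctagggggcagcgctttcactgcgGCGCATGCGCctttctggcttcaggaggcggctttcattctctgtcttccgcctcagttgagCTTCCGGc
Atp5j (chr16:84834957-84835116, minus): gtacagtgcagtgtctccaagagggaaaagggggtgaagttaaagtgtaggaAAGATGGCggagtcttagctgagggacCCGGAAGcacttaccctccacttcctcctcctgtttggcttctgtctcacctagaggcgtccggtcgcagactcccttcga
Sdha (chr13:74350221-74350380, minus): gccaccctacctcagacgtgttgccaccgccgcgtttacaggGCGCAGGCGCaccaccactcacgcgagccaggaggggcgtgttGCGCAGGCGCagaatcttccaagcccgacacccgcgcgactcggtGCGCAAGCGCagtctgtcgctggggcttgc
Ndufaf2 (chr13:108158606-108158765, minus): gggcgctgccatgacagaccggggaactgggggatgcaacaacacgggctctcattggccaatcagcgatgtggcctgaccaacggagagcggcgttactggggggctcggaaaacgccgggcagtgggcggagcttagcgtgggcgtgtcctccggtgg
The Sdha window held 3 matches to GCGCNNGCGC and the Ndufaf2 window none of the motifs. Genes with at least 1 motif (43, all tested) had a median log2 fold change of 0.24 and the tested genes with none (31) a median of 0.23.

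No respiratory chain gene passed the threshold between mutants and controls, yet most nuclear members were slightly higher in mutants. Of the 88 nuclear genes with enough reads to test, 79 had a positive log2 fold change (50.7% of all genes tested did), 50 had an unadjusted p under 0.05 with higher mutants (background 9.84%) and 3 with lower mutants (background 11.5%). The median log2 fold change was 0.23 over the nuclear genes and 0.0038 over all genes tested, and the smallest adjusted p was 0.0530. With a measure of library composition as a covariate (the T-run index, described further on), 19 of the 88 were higher and the median turned to -0.07. DESeq2, run as an alternative, called 19 nuclear genes at an adjusted p of 0.05, of which 18 were higher in mutants (background 2.61% in that direction). The tested genes all passed the filter on low reads, which 4 tissue-restricted complex IV genes did not.

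Summed over all 92 nuclear genes, the level in controls 1 to 5 was 27106, 29063, 27700, 28175 and 33049 CPM. The 6 mutants were, in order, at 31686, 39164, 33542, 33869, 29374 and 31854 CPM. The groups overlapped: control 5 lay above mutants 1, 5 and 6, and mutant 5 lay close to the controls other than control 5. The mutant mean over the control mean was 1.26 in litter A, 1.15 in litter B, 1.04 in litter C and 1.02 in litter D. The median nuclear log2 difference was likewise 0.39, 0.25, 0.08 and 0.04 in litters A to D, with 83, 74, 64 and 57 of the 88 genes higher in mutants. All-gene medians in the same litters lay between -0.01 and 0.01. Of the nuclear genes, 44 were higher in mutants in each of the 4 litters (background 12.5%) and 2, Sdha and Ndufs1, were lower in each (background 13.5%).

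**Figure D1:**
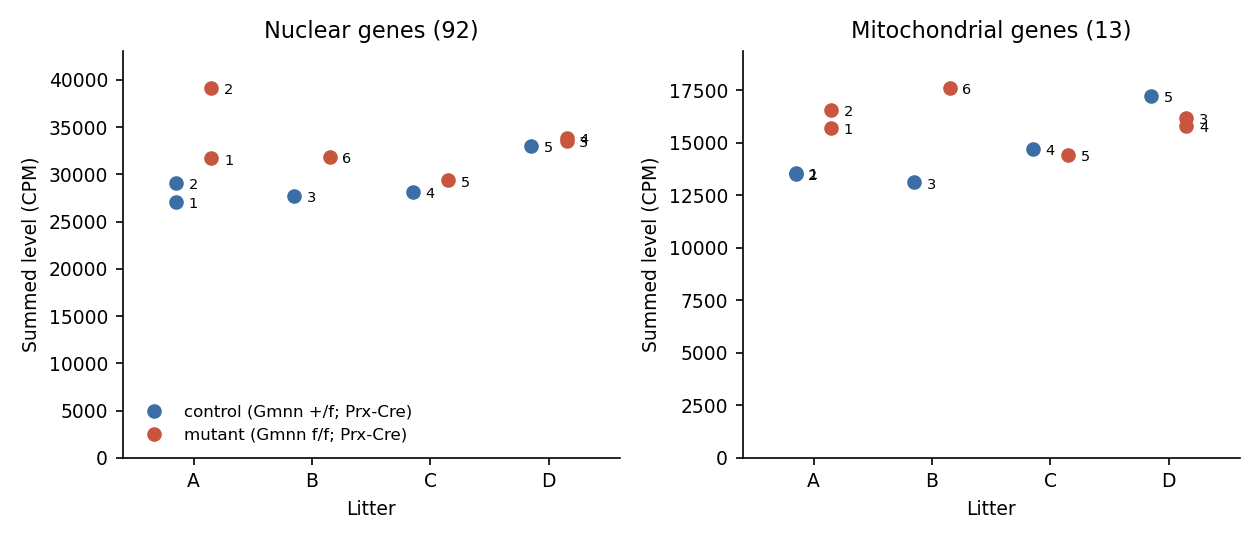
Summed level (CPM, y axis from 0) of the 92 nuclear and the 13 mitochondrial genes in each library, by litter (x axis); each point is 1 library with its replicate number. The nuclear sum in mutants lies above that of controls most clearly in litters A and B, and control 5 of litter D, at 33049 CPM, is the highest control.

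By complex, median log2 fold changes were 0.29 for complex III, 0.24 for complex IV and for complex V, 0.23 for complex I subunits, 0.16 for complex I assembly factors and 0.11 for complex II. Differences between complexes were not tested. Several large subunits (Ndufs1, Ndufv1, Sdha, Uqcrc1, Uqcrc2, Atp5a1 and Atp5b, singled out after their values were seen) had log2 fold changes from -0.23 to 0.06.

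**Figure D2:**
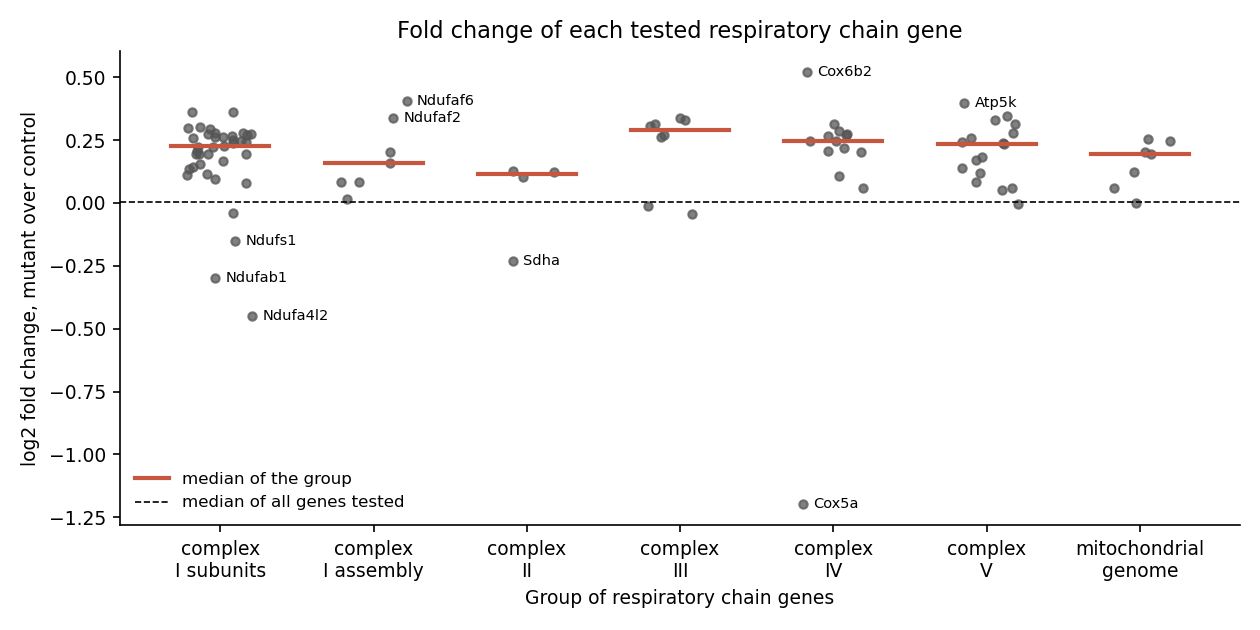
Log2 fold change (y axis, mutant over control) of each tested respiratory chain gene, by group (x axis); horizontal spread within a group has no meaning, red bars are group medians and the dashed line is the median of all 15821 genes. Most points lie between 0 and 0.4, with Cox5a at -1.20 and Sdha at -0.23 among those below 0.

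Complex I is the entry point for electrons from NADH. Of its 38 nuclear genes named as subunits, 34 had a positive log2 fold change. At an unadjusted p under 0.05, 24 had higher mutants (background 9.84%) and 1, Ndufs1, had lower mutants (background 11.5%). Ndufs1, the largest core subunit, was at 153, 145, 166, 159 and 141 CPM in controls 1 to 5 and at 128, 130, 135, 131, 149 and 145 CPM in mutants 1 to 6. The mutants lay low, but mutants 5 and 6 fell within the control range. Its log2 fold change was -0.15 (edgeR adjusted p 0.161, SE 0.06).

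Ndufa3, an accessory subunit, had the smallest p among complex I subunits. It was at 315, 360, 345, 319 and 367 CPM in controls and at 415, 524, 411, 426, 346 and 418 CPM in mutants 1 to 6. Mutant 5 alone lay within the control range. Its log2 fold change came to 0.30 (edgeR adjusted p 0.0730, SE 0.08). Ndufb4 had the highest log2 fold change of the complex I subunits, 0.36 (edgeR adjusted p 0.170, SE 0.14), at a mean of 10.2 ± 1.49 CPM (SD, n = 5) for controls against 13.3 ± 2.23 CPM (SD, n = 6). All of its coding 50-mers (stretches of 50 bases) also occur in other annotated genes, so its count may cover only part of its reads. Ndufa4, which was named as a complex I subunit and is now placed in complex IV, was at 722 ± 74.3 CPM (SD, n = 5) and 876 ± 117 CPM (SD, n = 6), with a log2 fold change of 0.26 (edgeR adjusted p 0.141). Its paralog Ndufa4l2, known for its induction by low oxygen, was at 1.64 to 13.3 CPM in controls and 2.89 to 11.1 CPM in mutants, the lowest log2 fold change of complex I at -0.45 (edgeR adjusted p 0.484, SE 0.34). That value was -0.14 without control 2 and -0.78 without control 3 or without mutant 6.

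The Ndufaf genes encode factors that help build complex I and do not stay in it. Ndufaf2 (chr13:108052590-108158625, minus strand, mm10) was at 138, 153, 128, 143 and 161 CPM in controls 1 to 5 and at 173, 220, 177, 176, 174 and 179 CPM in mutants 1 to 6. Every mutant lay above every control, which held for 1 of the 88 tested nuclear members, near the share over all genes (background 1.29%). Its log2 fold change was 0.34 (edgeR adjusted p 0.0530, SE 0.08), positive in all 4 litters. Its adjusted p was 0.0484 with limma-voom and 0.0468 with a filter at 1 CPM. The log2 fold change was 0.18 (adjusted p 0.0664) with an exon length offset, and 0.09 (adjusted p 0.698) with a covariate for T runs, an index described further on. Ndufaf6 was at 7.18 ± 1.54 CPM (SD, n = 5) and 9.56 ± 0.505 CPM (SD, n = 6). Control 5, at 9.88 CPM, lay among the mutants (8.93 to 10.3 CPM) and the other controls at 6.04 to 6.90 CPM. The log2 fold change of Ndufaf6 was 0.40 (edgeR adjusted p 0.118, SE 0.13), and 0.58 with adjusted p 0.0290 without control 5. Ndufaf7, which methylates a core subunit, had the lowest log2 fold change of the 7, 0.01 (edgeR adjusted p 0.944, SE 0.08).

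Complex II, succinate dehydrogenase, also belongs to the citric acid cycle. Its flavoprotein Sdha (chr13:74322254-74350280, minus strand, mm10) was at 512, 467, 472, 527 and 466 CPM in controls 1 to 5 and at 399, 369, 426, 441, 457 and 412 CPM in mutants 1 to 6. Every mutant lay below every control (1 of the 88 tested nuclear members, near the background of 1.3%), the nearest being mutant 5 and control 5. The log2 fold change of Sdha was -0.23 (edgeR adjusted p 0.0725, SE 0.06), negative in each of the 4 litters, and DESeq2 gave an adjusted p of 0.0151. With the T-run covariate it was -0.08 (adjusted p 0.641). The other 3 subunits pointed the other way: Sdhd, a membrane anchor, was at 525 ± 47.3 CPM (SD, n = 5) and 579 ± 41.5 CPM (SD, n = 6), with a log2 fold change of 0.13 (edgeR adjusted p 0.352), Sdhb was at 0.12 and Sdhc at 0.10.

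Complex III passes electrons from ubiquinol to cytochrome c. Its 2 large core proteins had log2 fold changes of -0.04 for Uqcrc1 (854 ± 73.3 CPM, SD, n = 5, and 837 ± 50.6 CPM, SD, n = 6) and -0.01 for Uqcrc2. The other 6 genes lay between 0.26 and 0.34, all with an unadjusted p under 0.05 (background 9.84% with higher mutants). Among them, Uqcrq, a small subunit next to cytochrome b, was at 412, 483, 414, 445 and 541 CPM in controls and at 548, 763, 573, 570, 501 and 561 CPM in mutants 1 to 6. Mutant 5 lay below control 5, and mutant 2 far above the rest. Uqcrq had a log2 fold change of 0.34 (edgeR adjusted p 0.0915, SE 0.10). Uqcrfs1, the Rieske iron-sulphur protein, had a log2 fold change of 0.30 (edgeR adjusted p 0.135).

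Complex IV held both extremes. Cox5a, a nuclear subunit in contact with the catalytic core, was at 227, 64.5, 125, 66.7 and 36.1 CPM in controls 1 to 5 and at 45.9, 27.9, 32.8, 27.9, 104 and 21.7 CPM in mutants 1 to 6. Its levels ranged far more widely than those of its partner subunits, within both groups, and the groups overlapped. The log2 fold change of Cox5a was -1.20 (edgeR adjusted p 0.162, SE 0.45), and the litters disagreed: the log2 difference was -1.75 in A, -2.52 in B, 0.64 in C and -0.25 in D (genotype by litter, unadjusted p 0.0205, edgeR adjusted p 0.950). With control 1 left out the value was -0.68, and with the T-run index as covariate 0.32. Cox5b was at 117 ± 26.1 CPM (SD, n = 5) and 142 ± 19.6 CPM (SD, n = 6), with a log2 fold change of 0.24 (edgeR adjusted p 0.197).

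Cox6b2, a form of Cox6b best known from testis, had the highest log2 fold change of the nuclear genes. It was at 20.8, 24.5, 26.3, 20.5 and 22.7 CPM in controls and at 31.0, 47.7, 29.2, 26.2, 25.7 and 36.1 CPM in mutants 1 to 6. Mutants 4 and 5 lay just under control 3, and mutant 2 stood highest. This corresponds to a log2 fold change of 0.52 (edgeR adjusted p 0.0546, SE 0.13), positive in all 4 litters, and adjusted p was 0.0424 with an offset for exon length and 0.0474 with a filter of 1 CPM. With the T-run covariate (an index of transcripts with long T runs, described further on) it was 0.06 (adjusted p 0.891).

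**Figure D3:**
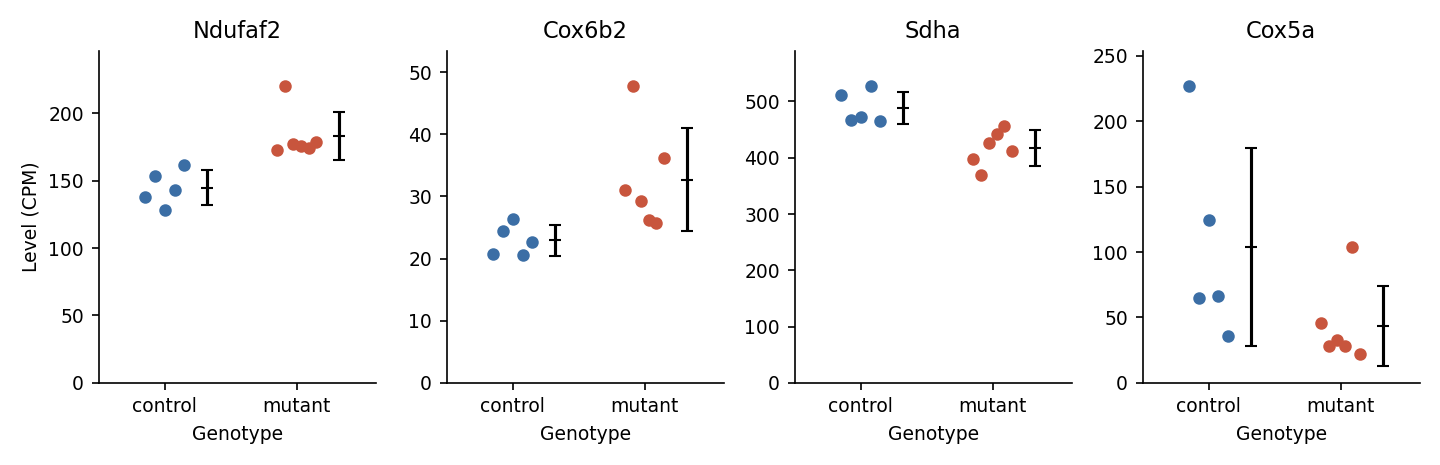
Level (CPM, y axes from 0) of Ndufaf2, Cox6b2, Sdha and Cox5a in each control and mutant library; points are libraries, placed side by side within a genotype in replicate order, and bars give the mean ± SD (n = 5 and n = 6). The genotypes do not overlap for Ndufaf2 and Sdha and overlap for Cox6b2 and Cox5a.

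Complex V makes ATP in its F1 head, whose catalytic ring is built from the products of Atp5a1 and Atp5b. Atp5a1 was at 1482 ± 62.5 CPM (SD, n = 5) and 1486 ± 62.0 CPM (SD, n = 6), with a log2 fold change of -0.01 (edgeR adjusted p 0.972, SE 0.06), the lowest of the complex. The log2 fold change of Atp5b was 0.06 (edgeR adjusted p 0.655). Atp5k, a small membrane subunit, was at 340, 362, 339, 337 and 403 CPM in controls and at 442, 631, 471, 455, 370 and 478 CPM in mutants 1 to 6. Mutant 5 lay below control 5, and the other 5 mutants above every control. For Atp5k the log2 fold change was 0.40 (edgeR adjusted p 0.0603, SE 0.10), the highest of the complex, and 0.28 (adjusted p 0.0470) without mutant 2, but 0.03 (adjusted p 0.921) with the T-run covariate. Of the 17 complex V genes, 16 had a positive log2 fold change and 8 an unadjusted p under 0.05, all with higher mutants (background 9.84%). The symbols Atp5s and Atp5sl fall under the rule by name but have since been renamed Dmac2l and Dmac2, and their log2 fold changes were 0.17 and 0.08.

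Several subunits come in tissue-specific forms, and in each cytochrome oxidase set the widely expressed form had the higher level in these limb buds. Levels between genes are compared per kilobase of exon. In controls, Cox4i1 was at 727 ± 79.1 CPM per kb (SD, n = 5) and Cox4i2, a form regulated by oxygen, at 33.5 ± 8.27. Cox6b1 was at 866 ± 84.5 CPM per kb and Cox6b2 at 20.7 ± 2.24. Cox7a2 was at 649 ± 50.7 CPM per kb, Cox7a2l, which joins complexes III and IV into supercomplexes, at 107 ± 8.22, and Cox7a1, the heart and muscle form, at 1.27 ± 0.279. Cox6a1 was at 685 ± 106 CPM per kb, while Cox6a2, its muscle form, had 5 reads over all 11 libraries, Cox7b2 had 7, and Cox8b and Cox8c had 0. A count of 0 allows up to 3 reads, or 0.152 to 0.204 CPM in a library. None of these 4 was tested. Between genotypes, log2 fold changes were 0.21 for Cox4i1, 0.11 for Cox4i2, 0.27 for Cox6a1 and for Cox6b1, 0.24 for Cox7a2, 0.06 for Cox7a2l, 0.26 for Cox7a1, 0.20 for Cox7b and 0.29 for Cox8a, with edgeR adjusted p from 0.0836 (Cox6a1) to 0.824 (Cox4i2).

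The c ring of the ATP synthase is made from 3 genes, Atp5g1, Atp5g2 and Atp5g3, that encode the same mature protein. Atp5g3 was at 896 ± 172 CPM (SD, n = 5) for controls against 1079 ± 103 CPM (SD, n = 6), with a log2 fold change of 0.24 (edgeR adjusted p 0.128). Atp5g1 was at 29.5 ± 5.31 and 37.7 ± 5.05 CPM, with a log2 fold change of 0.33 (edgeR adjusted p 0.116), and Atp5g2 at 2.70 ± 0.255 and 3.24 ± 0.680 CPM, with 0.26 (edgeR adjusted p 0.507). The 3 genes cannot be ranked by these counts: at least 99.7% of the coding 50-mers of Atp5g1 and Atp5g2 also occur in other genes, and none of those of Atp5g3. Of the nuclear members, 6 (Atp5g1, Atp5g2, Atp5l, Cox7c, Ndufb4 and Ndufab1) had 90% or more of their coding 50-mers in another gene, and these had means of 2.99 to 33.9 CPM. Their levels are therefore uncertain.

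The mitochondrial genome encodes 13 proteins of the chain, transcribed as long precursors that are cut into single messages. In these counts, only 7 of the 13 genes had enough reads to test. Per kilobase in controls, mt-Cytb, the cytochrome of complex III, was highest at 4636 ± 462 CPM per kb (SD, n = 5), and mt-Nd1 was next at 4297 ± 669. mt-Co1, the catalytic subunit of complex IV, followed at 1748 ± 169, then mt-Nd2 at 587 ± 98.5, mt-Nd4 at 557 ± 61.8, mt-Nd6 at 429 ± 82.5 and mt-Nd5 at 392 ± 39.7. Neighbours in this order whose ranges overlapped in controls were mt-Cytb and mt-Nd1, mt-Nd2 and mt-Nd4, mt-Nd4 and mt-Nd6, and mt-Nd6 and mt-Nd5. mt-Nd6 is the only one of the 13 on the minus strand, and since counting took no account of strand, its reads cannot be told apart from those of transcripts of the opposite strand.

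The 6 genes between mt-Co1 and mt-Nd4 had almost no counted reads. Over all 11 libraries together, mt-Nd3 had 26 reads, mt-Co2 had 1, and mt-Atp8, mt-Atp6, mt-Co3 and mt-Nd4l had 0. Apart from mt-Atp8, from 99.0% to 100% of their coding 50-mers also occur in annotated pseudogenes on chromosome 1, in the order Gm28661, Gm10925, Gm28437, Gm28438 and Gm10222. These pseudogenes on chromosome 1 had 0 to 6 counted reads each, so the reads are in neither copy. For mt-Co2, a second annotated copy on chromosome 2, Gm13341, holds 35.0% of its coding 50-mers and had 191 counted reads. The header of the table states a mapping quality of at least 10, a value that reads matching several places equally well do not reach by the default of the aligner named in the processing notes. mt-Atp8 (chrM:7766-7969) shares no 50-mer with another annotated gene, and only its end overlaps mt-Atp6, which starts at 7927. Since only annotated transcripts were compared, a copy of mt-Atp8 in unannotated sequence would not be seen. The stretch of chromosome 1 between the end of Gm10925 (24614651) and the start of Gm28661 (24614885) was not searched. The table gives no usable level for the 6 genes in either genotype. Shared 50-mers go with the missing reads of the other 5, and why mt-Atp8 had 0 was not tested. mt-Co1 and mt-Nd4, which flank them, share 51.0% and 62.2% of their coding 50-mers with other genes, so that part of their reads may not be counted, while mt-Nd1, mt-Nd6 and mt-Cytb share none.

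**Figure D4:**
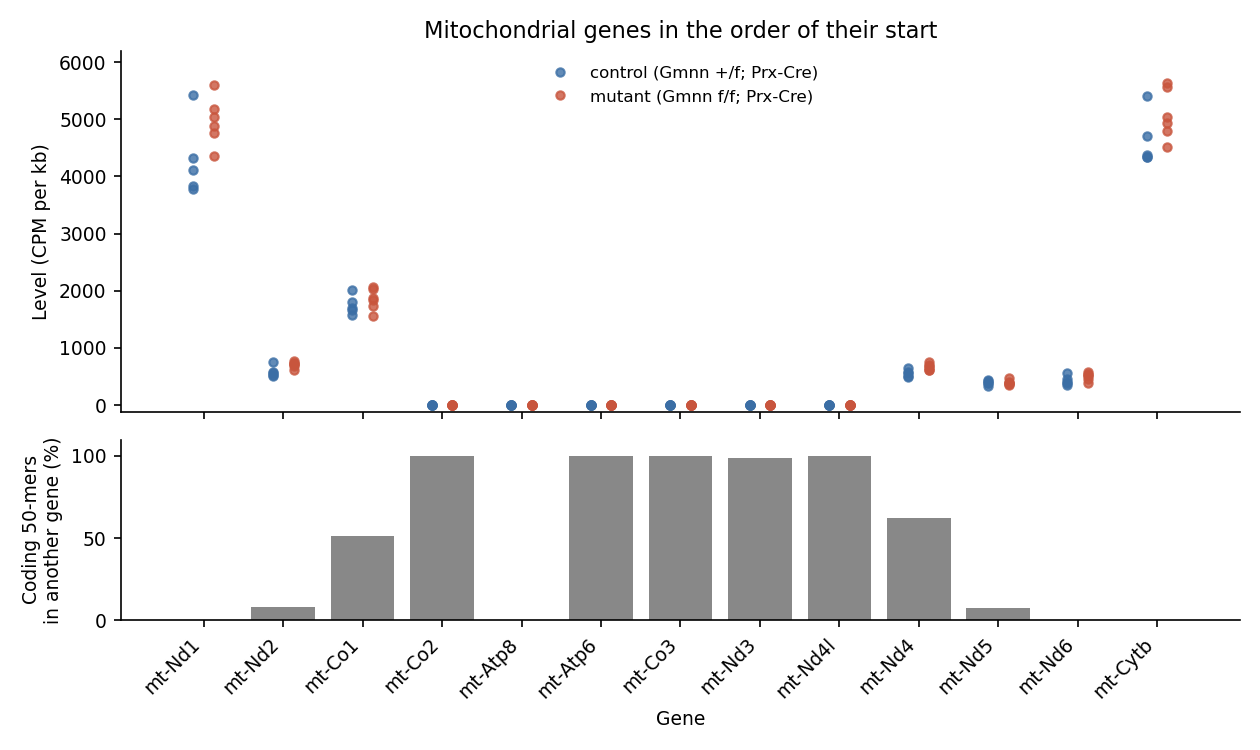
Upper panel, level (CPM per kb) of the 13 mitochondrial genes in each control and mutant library, in the order of their start in the mitochondrial genome; lower panel, share (%) of each gene's coding 50-mers that also occurs in another annotated gene. The 6 genes from mt-Co2 to mt-Nd4l lie at or near 0 in all 11 libraries, and 5 of them share 99.0% to 100% of their 50-mers.

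Between genotypes, none of the 7 tested mitochondrial genes passed the threshold, 6 had a positive log2 fold change, and the median was 0.19. The median was 0.11, with 5 of 7 positive and none at an unadjusted p under 0.05, without control 3 or without mutant 6, 0.13 without mutant 1 or without mutant 2, 0.08 without litter A and 0.30 without control 5. mt-Nd4 and mt-Nd2, both core membrane subunits of complex I, had an unadjusted p under 0.05 with higher mutants (background 9.84%). mt-Nd4 was at 800, 673, 698, 777 and 887 CPM in controls and at 933, 849, 968, 896, 846 and 1030 CPM in mutants 1 to 6. Only control 5 reached into the mutant range. For mt-Nd4 the log2 fold change was 0.25 (edgeR adjusted p 0.118, SE 0.08), and the mean difference was positive in all 4 litters, the only mitochondrial gene of which this held. mt-Nd2 was at 579, 550, 527, 608 and 784 CPM in controls and at 743, 751, 708, 767, 634 and 806 CPM in mutants. Control 5 lay near the top of the mutant range. For mt-Nd2 the log2 fold change was 0.25 (edgeR adjusted p 0.156, SE 0.09), and 0.37 with adjusted p 0.0405 without control 5.

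The other 5 tested mitochondrial genes had log2 fold changes of 0.20 (mt-Nd6, SE 0.11), 0.19 (mt-Nd1, SE 0.10), 0.12 (mt-Cytb, SE 0.09), 0.06 (mt-Co1, SE 0.08) and -0.00063 (mt-Nd5, SE 0.08), with edgeR adjusted p from 0.270 to 0.998. Summed over the 13 genes, controls 1 to 5 were at 13561, 13515, 13119, 14699 and 17256 CPM and mutants 1 to 6 at 15713, 16570, 16206, 15814, 14440 and 17625 CPM. Control 5 was again the highest control and mutant 5 the lowest mutant. By litter, the mutant mean over the control mean was 1.19 in A, 1.34 in B, 0.982 in C and 0.928 in D. The median log2 difference of the 7 genes was 0.28, 0.46, -0.02 and -0.10 in litters A to D, so that the sign was not shared by the litters. Across the 11 libraries, the mitochondrial sum followed the nuclear sum with Pearson's r of 0.74 (Spearman's rho 0.78), and r was 0.43 over the 6 mutants. This is a description, since both sums share each library's depth and composition.

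The litters were also compared directly. No respiratory chain gene passed an adjusted p of 0.05 between litters (edgeR, background 0.0885%, 14 genes), and 4 nuclear genes had an unadjusted p under 0.05 (background 13.5%): Atp5d, Ndufa4l2, Atp5g3 and Cox5b. The genotype difference itself was tested for a difference between litters. No gene passed an adjusted p of 0.05, members or not (background 0.0%), and 3 members had an unadjusted p under 0.05 (background 3.82%): Cox4i2, Cox5a and mt-Nd2. The test had 3 residual degrees of freedom.

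Genes that build, feed or regulate the chain were examined as further lists, chosen by function. The assembly factors of complex IV were the only list with a gene past the threshold, 1 of 22 tested (background 2.18%). Cox11, which carries copper to the catalytic core, was at 8.00, 8.29, 7.80, 7.49 and 7.08 CPM in controls 1 to 5 and at 2.83, 3.31, 3.83, 4.88, 5.74 and 5.34 CPM in mutants 1 to 6. Every mutant lay below every control (background 1.3%). Cox11 fell by 0.87 on the log2 scale (log2 fold change -0.87, SE 0.18, edgeR adjusted p 0.0406), in all 4 litters. With any 1 of the libraries other than control 5 left out, the call was lost (adjusted p 0.0569 to 0.176), with log2 fold changes of -0.98 to -0.75. It was also lost with no block (-0.84, adjusted p 0.0501), without litters A, B, C or D (adjusted p 0.218, 0.155, 0.0556 and 0.0603) and with the T-run covariate (-0.59, adjusted p 0.457). Litter A moved the value most, to -0.56 without it. The list as a whole had 16 of 22 genes with a positive log2 fold change and a median of 0.11.

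Other lists had no gene past the threshold. Assembly factors of complex II (4 of 4 genes higher, median log2 fold change 0.19) and of complex V with its regulators (6 of 6 higher, median 0.25) lay on the side of the subunits. Among the complex V regulators, Atpif1, the inhibitor of ATP synthase running in reverse, was at 424 ± 38.9 CPM (SD, n = 5) and 511 ± 62.3 CPM (SD, n = 6), with a log2 fold change of 0.26 (edgeR adjusted p 0.129). Complex III assembly factors had 5 of 6 genes higher (median 0.06) and complex I assembly factors outside the Ndufaf family 4 of 9 (median -0.04). Electron carriers, cytochrome c among them, had 7 of 15 higher (median -0.02), genes that copy and transcribe mitochondrial DNA 5 of 14 (median -0.04), and citric acid cycle enzymes 6 of 13 (median -0.01). Over all genes tested, the median was 0.0038.

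Regulators of respiratory genes had 5 of 8 higher and a median of 0.08, and none passed the threshold. At an unadjusted p under 0.05, 1 was higher and 2 lower in mutants (background 9.84% and 11.5%). Nrf1, whose product binds the GCGCNNGCGC motif shown in the Atp5k and Sdha windows, was at 107 ± 4.74 CPM (SD, n = 5) for controls against 88.5 ± 8.72 CPM (SD, n = 6), with a log2 fold change of -0.28 (edgeR adjusted p 0.0672, SE 0.07). Yy1 was at 27.3 ± 1.51 CPM (SD, n = 5) and 33.6 ± 3.53 CPM (SD, n = 6), with a log2 fold change of 0.30 (edgeR adjusted p 0.0861, SE 0.09). Gabpa was at a log2 fold change of -0.15 (edgeR adjusted p 0.371), and Tfam, the factor that packs and transcribes mitochondrial DNA, at 0.08 (edgeR adjusted p 0.495). Gabpb1, also on the list of regulators, was at 6.05 to 10.2 CPM per kb in controls and 5.07 to 8.51 in mutants. Nrf1, Yy1, Gabpa, Gabpb1, Tfam and Atpif1 were singled out after their values were seen.

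Transcript length and library composition were read beside these values. Short genes were higher in mutants in general: the median log2 fold change over all genes tested was 0.17 for exon lengths up to 1000 bases, 0.09 from there to 2000, 0.0003 from there to 4000 and -0.03 beyond. The respiratory genes of the same classes (26, 32, 21 and 9 genes) had medians of 0.26, 0.23, 0.12 and 0.12. The median exon length was 1498 bases for the tested nuclear members and 3615 for all genes tested. With an offset for exon length in the model, the median was 0.12 over the nuclear genes, with 77 of 88 positive, and 0.05 over the 7 mitochondrial genes.

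The libraries also differed in how strongly transcripts with long runs of T were represented. An index was taken as the mean log2 CPM of genes whose transcripts hold a T run of 18 bases or more, minus that of genes with runs of at most 8. It was 1.38 to 1.74 in controls, control 5 being lowest, and 1.09 to 1.58 in mutants, mutant 2 being lowest and mutant 5 highest. Of the nuclear respiratory genes, 3 (Ndufb2, Ndufs1 and Cox7a2) hold a run of 18 or more. Another 65 tested members have runs of at most 8 and so enter the part that is subtracted. Those 65 had a median log2 fold change of 0.24, against 0.03 over the 9458 genes of that class. For runs of 9 to 17 the medians were 0.16 (19 members) and -0.02 (4874 genes), and for 18 or more 0.24 (3 members) and -0.20 (959 genes). Across the 11 libraries, the nuclear sum and the index had Pearson's r of -0.98 (Spearman's rho -0.97), -0.98 without the 2 libraries farthest from the median index, and -0.98 over the 6 mutants. Against the share of haemoglobin reads, r of the nuclear sum was 0.75 (rho 0.64), 0.61 without the 2 libraries farthest from the median share, and 0.79 over the mutants. For the mitochondrial sum against the index, r was -0.76 (rho -0.70), -0.75 without 2 libraries, and -0.43 over the mutants. These values come from the same libraries and share their composition, and the relation was looked at after earlier results on T runs. With the index as a covariate, 19 of the 88 nuclear genes had a positive log2 fold change and their median was -0.07. The mitochondrial median was then 0.06. Whether the genotype, the index or both set the level of these genes cannot be told apart in these libraries, since the index differed between genotypes.

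**Figure D5:**
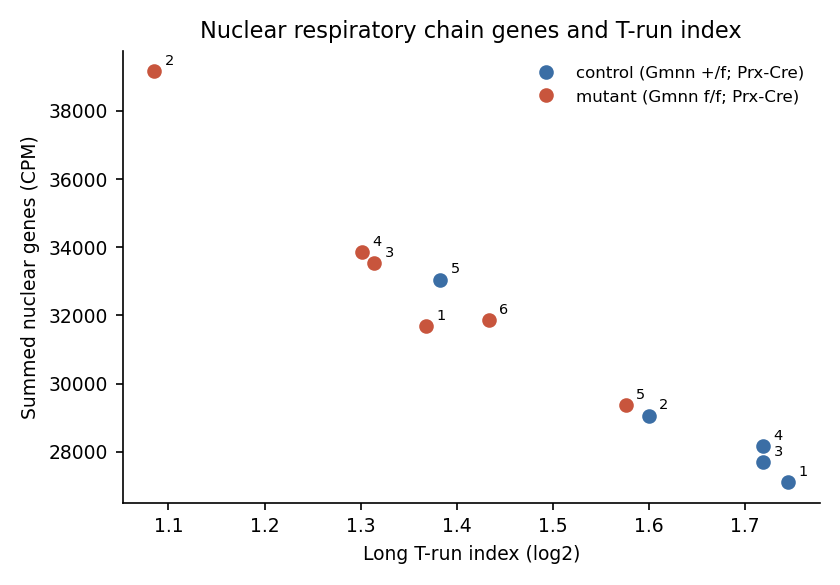
Summed level of the nuclear respiratory genes (CPM, y axis not from 0) against the T-run index (log2, x axis); each point is 1 library with its replicate number. Mutant 2 lies at one end (index 1.09, 39164 CPM) and control 1 at the other (1.74, 27106 CPM), with control 5 among the mutants and mutant 5 beside control 2.

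Markers of other cell types in the bud were read beside these values. All 10 red blood cell markers had reads, with a summed level of 13103 to 33649 CPM in controls and 16411 to 56628 CPM in mutants (highest in mutant 2). Of these, 9 of 10 had a positive log2 fold change (50.7% of all genes tested did). All 12 muscle lineage markers had reads, at 92.8 to 267 CPM in controls and 104 to 138 CPM in mutants. Of these, 10 had a negative log2 fold change and 3 passed the threshold, lower in mutants (2.18% of all genes passed it, in either direction). The 9 macrophage markers summed to 6.94 to 28.0 CPM in controls and 11.2 to 39.6 CPM in mutants. The 7 endothelial markers lay at 150 to 236 and 120 to 201 CPM, the 8 markers of surface ectoderm and ridge at 168 to 304 and 189 to 312 CPM, and the 7 neural crest and Schwann markers at 8.67 to 20.2 and 6.24 to 13.6 CPM. Log2 fold changes were positive for 8 of 9 macrophage, 3 of 7 endothelial and 3 of 8 ectoderm markers. The 5 neural crest and Schwann markers tested all had negative values, 2 with an unadjusted p under 0.05 (background 11.5%). The part of these cells in the respiratory gene values was not tested. Without mutants 2 and 5 and control 5, the nuclear median was 0.24 with 78 of 88 genes positive, and the mitochondrial median was 0.35 with 7 of 7 positive. Without mutant 2 alone, the nuclear median was 0.14 with 73 of 88 positive. It was 0.11 with 71 positive when litter A was left out, and 22 nuclear genes then had higher mutants at an unadjusted p under 0.05, against 50 in all libraries. The count over all genes fell as well, to 1035 of 15091 without litter A from 1556 of 15821 in all libraries.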

How the data were processed

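The deposited table holds unnormalized counts of reads for each gene name, made by the authors with featureCounts 1.4.6-p4 on mm10 and GENCODE M9, with a mapping quality of at least 10, per the file headers. The header shows no option for strand, read pairs, overlapping genes or multi-mapping reads. Alignment was with STAR 2.5.4b, per the submitters' processing notes. Ribosomal RNA was depleted from total RNA, per the labels' protocols. The design text speaks of 6 matched pairs, and 11 libraries were analysed here, grouped by the genotype and litter in their titles.

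Counts were tested with edgeR 4.0.16 in R 4.3.3: filterByExpr (15821 genes, 99.9% of counts), TMM scaling, litter as a block plus genotype, the two-sided quasi-likelihood F test, and Benjamini-Hochberg adjustment over all genes tested, with a threshold of 0.05. CPM used TMM-scaled totals and log2 CPM a prior count of 2. The pairing comes from the litter numbers in the titles. On counts simulated from these libraries, the test recovered 98.5% of 200 genes changed 2-fold, with 7 other genes called. Alternatives were RLE and upper-quartile scaling, other filters, DESeq2 1.42.0, limma-voom (limma 3.58.1), no block, an exon length offset, a table without haemoglobin, ribosomal RNA and mitochondrial genes, and leaving out each library or litter. A T-run covariate and the joint removal of mutants 2 and 5 and control 5 were added after seeing the data. Coding 50-mers, T runs and gene copies were read from GENCODE transcripts, and promoters from RefSeq.

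The members and lists were chosen with earlier results of these data known. The genes named were Gmnn, all mitochondrial members, members past the threshold, per complex the smallest p and the highest and lowest log2 fold change among genes of at least 1 CPM, the sets of tissue forms, and list genes past the threshold. Others named (such as Ndufs1, Cox5b, Atp5b, Uqcrc2, Uqcrfs1 and Sdhb) were chosen after their values were seen. A single gene of the set is not reported here by name.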

Additional observations from a re-analysis of the deposited data

Results flagged for a closer look

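In each group, the highest and the lowest library were compared with the others, for the named genes and the summed levels. A library is listed here where its gap to the nearest of the others, divided by the group's range, passed Dixon's 95% critical value. Chance gives about 1 such group in 20, or 4.2 over the 168 comparisons of an end of a group, and 10 were found. In mutant 2, Ndufaf2 was at 220.1 CPM against 173.0 to 178.7 in the other mutants, Uqcrq at 762.6 CPM against 501.4 to 573.1, and Cox7b at 532.1 CPM against 383.1 to 431.4. In control 5, Ndufaf6 was at 9.88 CPM against 6.04 to 6.90 in the other controls, Cox7b at 420.1 CPM against 349.1 to 365.5, and Cox6a2 at 0.2102 CPM against 0 to 0.0559. In mutant 5, Cox5a was at 104.2 CPM against 21.7 to 45.9 in the other mutants. In mutant 4, Ndufa4l2 was at 11.06 CPM against 2.89 to 5.44, and mt-Co2 at 0.0595 CPM, from 1 read, against 0. In mutant 1, Cox7b2 was at 0.1157 CPM, from 2 reads, against 0. For mt-Co2 and Cox7b2, the gap equals the range whatever the value, because all other mutants had 0. Mutant 2 had the lowest T-run index of all libraries and control 5 the lowest of the controls, and mutant 5 the highest of the mutants; the part of this in the values was not tested.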

How the results depend on the processing

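Depth limits the lowest genes: Cox7a1, for example, rests on 137 reads over all 11 libraries. Other low members, such as Atp5l and Atp5g2, have nearly all of their coding 50-mers in other genes. No alternative gives a usable level for the 6 mitochondrial genes with almost no counted reads. The number of genes called over the whole table, 345, was 1566 with no filter on low counts, 550 with the filter at 1 CPM, 1194 with DESeq2, 16 with no replicate block for litter, 609 with an exon length offset, 2 with the T-run covariate, 9, 3, 1 and 148 without litters A, B, C and D, and 1 to 850 with 1 library left out. The number of nuclear members called, 0, was 34 with no filter, 2 with the 1 CPM filter, 19 with DESeq2, 1 with limma-voom, 1 with the exon length offset, 2 without mutants 2 and 5 and control 5, and 0 to 8 with 1 library left out, 8 being without control 5. The number of mitochondrial members called, 0, was 2 with no filter, 1 with DESeq2, 2 without mutants 2 and 5 and control 5, and 0 to 1 with 1 library left out. With no filter, 6 of 99 members were called between litters, beside 1583 of all 29256 genes. For genotype by litter, 3 of the 99 were called, beside 438 of the 29256. Without mitochondrial, haemoglobin and ribosomal RNA genes, no mitochondrial value can be given. The nuclear median log2 fold change, 0.226, was 0.141 to 0.291 with 1 library left out (0.141 without mutant 2), 0.111 without litter A and 0.119 with the exon length offset, and it was positive under every alternative except the T-run covariate, where it was -0.0706. The mitochondrial median stayed positive, from 0.046 to 0.348. Gmnn stayed lower in mutants under every alternative, -1.02 to -0.573, but its adjusted p passed the threshold in fewer: it was 0.0501 (log2 fold change -0.637) with no replicate block, and lost with -0.707, -0.649 and -0.573 without litters B, C and D and for 8 of the 11 libraries left out in turn (-0.707 to -0.627 for those 8, and -0.754 to -0.573 over all 11). The cause was not tested.

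Of 902 values of the 35 other named genes under alternatives, 63 had the opposite sign. With the T-run covariate these were mt-Nd1 -0.102, mt-Cytb -0.103, Ndufaf7 -0.184, Ndufb4 -0.0827, Sdhd -0.0881, Uqcrq -0.0433, Cox5a 0.32, Cox4i1 -0.0852, Cox4i2 -0.633, Cox6b1 -0.0353, Cox7a1 -0.294, Cox7a2 -0.0539, Cox7a2l -0.181, Cox7b -0.0889, Cox8a -0.0131, Atp5g1 -0.0462, Atp5g3 -0.0093 and Ndufa4 -0.0704. With the exon length offset they were mt-Co1 -0.0138, Ndufaf7 -0.0111, Atp5a1 0.00716, Cox4i2 -0.0315 and Cox7a2l -0.0522. mt-Nd5 was at 0.0367 with upper-quartile scaling, 0.00095 with the 1 CPM filter, 0.00215 with limma-voom, 0.00836 with no replicate block, 0.0256 without litter C, 0.076 without litter D and 0.22 without the 3 libraries. Atp5a1 was at 0.0335 with upper-quartile scaling, 0.00669 with no replicate block, 0.0187 without litter B and 0.00767 without litter D. Without litter A, Ndufaf7 was at -0.0237, Cox4i2 at -0.336 and Cox7a2l at -0.0297. Without litter B, mt-Co1 was at -0.0143, Ndufaf7 at -0.00443 and Cox7a1 at -0.0172. With 1 library left out, the range was -0.073 to 0.0757 for mt-Nd5, -0.0143 to 0.0962 for mt-Co1, -0.0332 to 0.0516 for Ndufaf7, -0.0328 to 0.0188 for Atp5a1, -0.0919 to 0.292 for Cox4i2, -0.0182 to 0.512 for Cox7a1 and -0.00395 to 0.105 for Cox7a2l.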
